A study of Sus scrofa domesticus with 4 samples.

Results

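The making of antibody and its carriage into secretions can be set out in 3 steps, each with a gene that has a named probe on these arrays. B cells carry a membrane antibody whose signal is passed on by CD79A and CD79B, the signalling chains of the B cell receptor. Plasma cells, which arise from B cells, secrete antibody made of heavy and light chains. PIGR, the polymeric immunoglobulin receptor, is made by mucosal and glandular epithelium and carries dimeric IgA and pentameric IgM across it into secretions. The genes described here are LOC396781, an immunoglobulin heavy chain gene with the older symbol IGHG (the heavy chain of IgG), CD79A and PIGR. They were taken as every non-control probe whose RefSeq accession names 1 of these 3 genes, which gave 15 of the 43603 probes on the array: 13 for LOC396781 (accession NM_213828), 1 for CD79A (NM_001135962) and 1 for PIGR (NM_214159). That is 3 of the 3029 genes that could be named. All 15 passed the filter on dim probes, as did 26927 probes in all. The 3 genes were chosen by their measured ratios of OXA over control, so these ratios are given as a description, with no test.

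The tissue was endometrium of 4 Large White x Polish Landrace gilts, aged 7 to 8 months, on days 15 to 16 of pregnancy. Slices from the middle of the uterine horns were kept in medium for 2 h and then for 24 h, either with orexin A (OXA, a neuropeptide) or with no addition. Cultures were run in duplicate. The labels give the OXA dose as 10 nM and the design text as 10 µM. Each of 4 Agilent 2-colour arrays, numbered 1 to 4 by their titles, carried 1 OXA RNA and 1 control RNA, and nothing states that both came from 1 gilt. By each sample's own label OXA was in the red dye Cy5 on arrays 1 and 3, and on arrays 2 and 4 it was in the green dye, Cy3. The general labelling text instead puts OXA in Cy5 throughout. Ratios are log2 of OXA over control, so that 1 is a doubling. A level is a normalised log2 signal of 1 probe in 1 RNA, and levels are compared only between RNAs for the same probe. Replicates measure whatever spread these 4 arrays hold, and in whole tissue fewer cells of a type and less RNA per cell cannot be told apart.

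Between 62.4% and 74.5% of probes were well above background in Cy5, and 52.1% to 56.7% in Cy3 on arrays 2 to 4, but 31.8% in Cy3 on array 1. Array 1 was on a slide of its own and was scanned 71 days after the others, and no spot was saturated. The medians of 153 negative-control spots were 154 to 251 in Cy3 and 68 to 74 in Cy5. B cells and plasma cells were thinly covered by named probes. Of the B cell markers, CD79A was well above background in 6 of 8 readings, MS4A1 (the surface protein CD20) in 3, and FCER2 in 0. CD79B and the plasma cell genes JCHAIN, MZB1, SDC1, TNFRSF17 and PRDM1 had no probe named here, and XBP1, a transcription factor of secretory cells that is not limited to plasma cells, was in 8 of 8.

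LOC396781 had very unequal levels on the 4 arrays, in both RNAs. In the probe of highest signal, A_72_P152696, the control level was 10.98, 11.05, 14.05 and 14.06 on arrays 1 to 4. The OXA level was 12.27, 10.41, 15.65 and 12.19. Both RNAs of arrays 3 and 4 were above the control RNAs of arrays 1 and 2, and the mean of both RNAs was 17.4-fold higher on array 3 than on array 2, a distance of 4.12. Only 3 other probes of 26927 had a distance that large, and each of these 3 was low on a single array, while the median probe had 0.21. Scaled instead to the 75th percentile of each array and dye, the distance was 5.20, which 0.167% of probes reached, and the order of the arrays (3, 4, 1, 2) was the same.

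Comparing RNAs that were in the same dye gave the same picture for LOC396781. Between arrays 1 and 3, where OXA was in Cy5, array 3 was higher by 3.08 in the control RNA and by 3.38 in the OXA RNA. Between arrays 2 and 4, where OXA was in Cy3, array 4 was higher by 3.00 in the control RNA and by 1.78 in the OXA RNA. Each of these 4 differences was above 0 in all 13 probes, with medians over the probes of 1.16, 1.59, 0.52 and 0.45, against -0.03 to 0.03 for all probes. All 13 probes had array 3 first and array 4 second, with array 1 lowest in 9 of them and array 2 in 4. In all but the 2 probes of highest signal, the control reading of array 1 was not well above background. Array 1 was also the array on a slide of its own, so its differences from array 3 cross slides. The 13 probes share 1 target transcript, and members of the immunoglobulin heavy chain family are alike in sequence, so they are not independent and could also bind related chains.

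**Figure D1:**
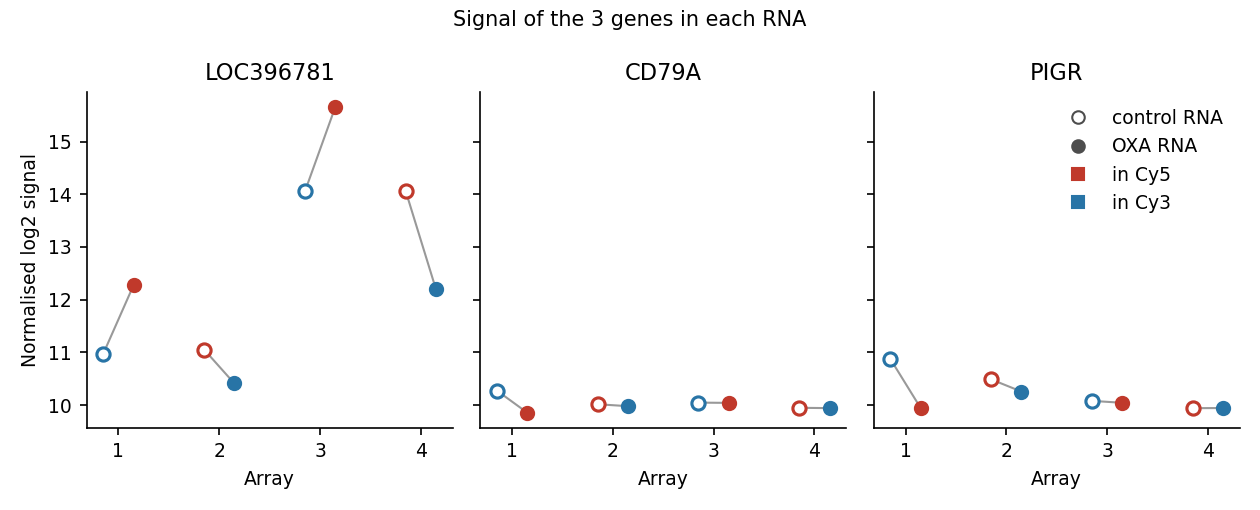
Normalised log2 signal (vertical axis) of LOC396781 (its probe of highest signal), CD79A and PIGR in the control RNA (open circles) and the OXA RNA (filled circles) of arrays 1 to 4, coloured by dye, with a line joining the 2 RNAs of an array. LOC396781 spans 10.41 to 15.65 and its red (Cy5) circle is the upper one on every array, while CD79A stays near 10 and PIGR is highest in the control RNA of array 1, at 10.87.

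The ratio of LOC396781 turned with the dye. In A_72_P152696 OXA over control was 1.30, -0.64, 1.60 and -1.86 on arrays 1 to 4, a mean of 0.10 ± 1.64 (SD, n = 4). It was above 0 on both arrays with OXA in Cy5 and below 0 on both with OXA in Cy3, so the RNA in Cy5 had the higher signal on 4 of 4 arrays. The mean is therefore a balance of large opposite values and not 4 values near 0. The second probe by signal, A_72_P716828, gave 0.77, -0.29, 1.58 and -1.27, and the third, A_72_P711793, gave 0.23, -0.03, 0.91 and -0.31. The other 10 probes ran from -0.13 to 0.21 on array 1, from -0.12 to -0.07 on array 2, from 0.42 to 0.62 on array 3 and from -0.18 to -0.10 on array 4. The mean over arrays was above 0 in 13 of 13 probes, from 0.05 to 0.20 with a median of 0.10, where 57% of all probes were above 0. This count depended on the processing: with no background taken off 4 of 13 were above 0 (median -0.02), and in the ratios of Agilent's software 3 of 13 (median -0.10).

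**Figure D2:**
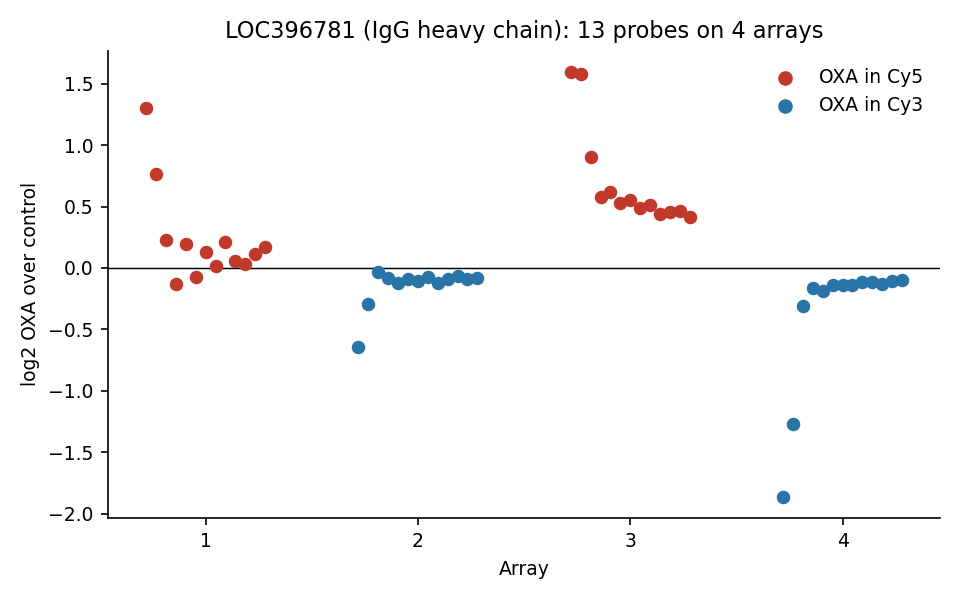
The log2 ratio of OXA over control (vertical axis) for each of the 13 LOC396781 probes on arrays 1 to 4, ordered within an array from the highest to the lowest signal and coloured by the dye that carried OXA. All 13 values are below 0 on array 2 and on array 4, all 13 are above it on array 3, and 11 of 13 are above it on array 1. On array 1 the control reading was well above background only in the 2 probes of highest signal.

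The dye coefficient of the same fit, the mean log2 of Cy5 over Cy3, was 1.35 (SE 0.23) for A_72_P152696, and only 0.026% of all probes had one as large. It comes from the same 4 ratios that chose the gene, so it is a description too, with no test. The coefficient was above 0 in 13 of 13 probes, from 0.17 to 1.35. Cy5 was the higher dye on 4 of 4 arrays in 11 of 13 probes, against 10.3% of all probes. If OXA is read as Cy5 on every array, as the general labelling text has it, this coefficient becomes the OXA effect, 1.35 in place of 0.10. The sign of the authors' deposited ratios on arrays 2 and 4 goes with the labels of the samples, not with the general text.

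Under the main processing the dye ratio of LOC396781 was farthest from 0 in the probe of highest signal on each array. On array 4, where control was in Cy5, OXA over control was -1.86 and -1.27 in the probes of highest and second highest signal, and -0.18 to -0.10 in the 10 of lowest signal. Before normalisation, with local background taken off, Cy5 over Cy3 ran from 0.787 to 5.26 over the 13 probes on array 1, 0.934 to 4.44 on array 2, 8.58 to 15.6 on array 3 and 3.46 to 11.8 on array 4. These raw ratios also hold the trend of dye with signal that loess takes out over all probes. In log2, the probe of highest signal on array 3 was 3.93 with median centring and 1.60 with loess. Normexp with an offset of 50 draws dim probes toward 0, and in the log ratio of Agilent's software the 13 probes lay closer together. There they ran from 0.14 to 1.68, from -1.60 to -0.82, from 1.51 to 1.83 and from -2.43 to -1.58 on arrays 1 to 4. Every probe was thus above 0 on arrays 1 and 3 and below 0 on arrays 2 and 4. In these ratios the probe of highest signal gave 1.55, -1.60, 1.62 and -2.31, and it was farthest from 0 on array 2 alone.

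**Figure D3:**
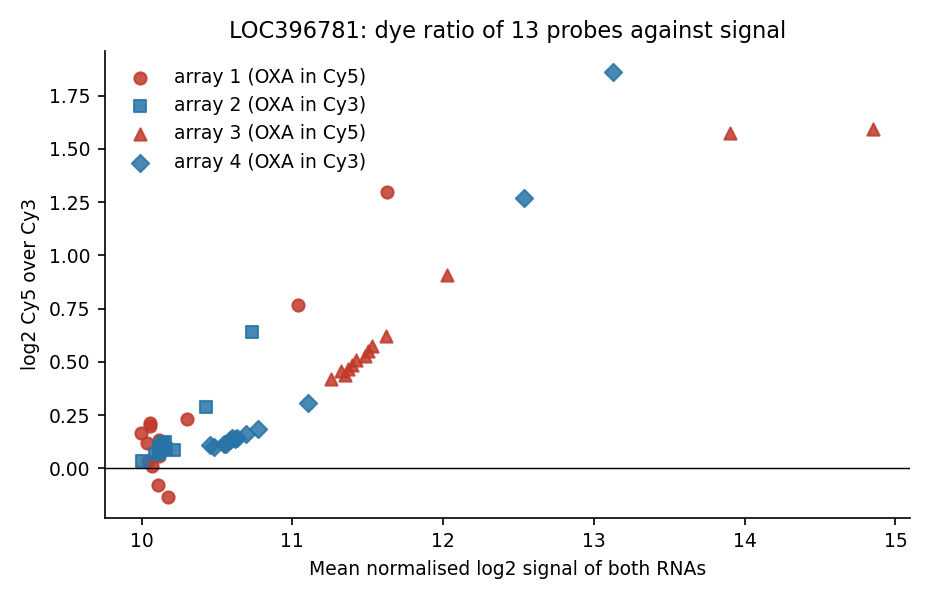
Log2 of Cy5 over Cy3 (vertical axis) against the mean normalised log2 signal of both RNAs (horizontal axis) for the 13 LOC396781 probes on each array, with a marker for each array and colour for the dye that carried OXA. Only 2 points lie below 0, both on array 1, and the point farthest from 0 is that of the probe of highest signal on array 4.

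The named genes whose ratios on 4 arrays were nearest to those of LOC396781, among 2406 compared, were SAA3 (an acute phase protein), CXCL9 (a chemokine induced by interferon gamma) and FCGR3A (a low-affinity receptor for IgG on natural killer and myeloid cells). Their root mean square differences from it were 0.56, 0.59 and 0.66. CXCL9 was 1.47, -1.56, 1.67 and -1.16 on arrays 1 to 4, and SAA3 was 1.16, -1.42, 0.85 and -1.58. The T and NK lymphocyte markers, with 10 of 15 genes measured, had array medians of 0.06, -0.30, 0.16 and -0.10. Markers of macrophages and related myeloid cells, with 7 of 11 measured, had 0.37, -0.37, 0.08 and -0.29, so both medians were above 0 with OXA in Cy5 and below it in Cy3. The medians of all probes were 0.08, -0.007, 0.005 and -0.0003, so on array 1 the T and NK median was not above that of all probes. The split was not limited to immune cell lists: smooth muscle markers, with 5 of 7 measured, had 0.19, -0.93, 0.30 and -0.21. Endothelial markers, with 5 of 8 measured, had 0.65, -0.51, -0.06 and -0.41, so on array 3 they did not share the split. The summed level of the T and NK list ran from 13.65 to 14.40 in OXA and 13.66 to 14.54 in control RNAs, and that of the myeloid list from 13.66 to 14.64 and from 13.60 to 14.80. The part of these cells in the LOC396781 values was not tested.

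CD79A was dim and close to equal in both RNAs on 3 of 4 arrays. Its control level was 10.28, 10.02, 10.05 and 9.95 on arrays 1 to 4, and its OXA level was 9.86, 9.98, 10.04 and 9.94. OXA over control was -0.42, -0.04, -0.005 and -0.006, a mean of -0.12 ± 0.20 (SD, n = 4), and below 0 on 4 of 4 arrays, as were 4.26% of all probes. Array 1 alone stood apart, and there the control RNA was not well above background. The other reading not well above background was OXA on array 4. Without array 1, which is also the fit within the slide of arrays 2 to 4, the OXA coefficient was -0.01. In that fit array 3 is the only array with OXA in Cy5, so it has as much weight as arrays 2 and 4 together.

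The signal of CD79A lay near that of the negative controls in Cy3. On arrays 1 to 4 its median Cy3 intensity was 367, 188.5, 222 and 182, against negative-control medians of 251, 154, 158.5 and 166. In Cy5 it was 199, 196, 289.5 and 172, against 68, 69, 69 and 74. Its mean level moved by 0.12 between arrays, less than the 0.21 of the median probe, and 67.7% of probes moved at least as much, whereas 0.0149% moved as much as LOC396781. On the scale of the 75th percentile the distance was 0.62, against 0.61 for the median probe. The ratio also depended on the background. Its mean was -0.29 when none was taken off, and -0.62 in the log ratio of Agilent's software, with -0.58, -0.64 and -0.27 on arrays 1 to 3 and a still lower value on array 4. The 3 genes nearest to CD79A were DGAT1, HTR1D and RENBP, with root mean square differences over 4 arrays of 0.0066, 0.0076 and 0.0084. All 3 were near -0.41 on array 1 and near 0 on arrays 2 to 4. The normexp offset of 50 draws dim probes toward 0, and whether these 3 genes share a response with CD79A was not tested.

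PIGR had its lowest ratio on array 1 under the main processing. Its control level was 10.87, 10.49, 10.08 and 9.94 on arrays 1 to 4, and its OXA level was 9.95, 10.26, 10.04 and 9.95. OXA over control was -0.93, -0.23, -0.04 and 0.00, a mean of -0.30 ± 0.43 (SD, n = 4) and a fold of 0.813. It was below 0 on 3 of 4 arrays, and 26.3% of all probes were below 0 on at least 3. The ratio was lowest where the control level, which is also its denominator, was highest, and the levels of the 2 RNAs overlapped between arrays. Without array 1 the OXA coefficient was -0.08, again within the slide of arrays 2 to 4. With median centring the lowest ratio was instead on array 2, at -0.40, against -0.22 on array 1.

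The order of the arrays differed between PIGR and LOC396781. In control RNA PIGR was highest on array 1 and lowest on array 4. The LOC396781 probe of highest signal had 10.98 and 11.05 in control RNA on arrays 1 and 2, against 14.05 and 14.06 on arrays 3 and 4. Control RNA was in Cy3 on arrays 1 and 3 and in Cy5 on arrays 2 and 4, so these orders mix the dyes. In OXA RNA the order of arrays was 2, 3, 1, 4 for PIGR and 3, 1, 4, 2 for LOC396781. The mean PIGR level moved by 0.47 between arrays, which 22.8% of probes reached, and by 1.85 on the scale of the 75th percentile, which 2.68% reached. Its median Cy3 intensity was 678, 289, 283 and 200 on arrays 1 to 4 and its Cy5 intensity 443, 714, 282.5 and 144, so that on array 4 it was near the negative controls in Cy3 (166) and the OXA reading was not well above background. On arrays 1 to 3, where both PIGR readings were well above background, its ratios were -1.13, -0.70 and -0.58 when no background was taken off. Agilent's software gave -1.86, -1.09 and -1.25. On array 4, the dimmest, these were 0.03 and 0.55.

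With 7 of 12 genes measured, among them EPCAM, KRT8 and CDH1, the epithelium list had array medians of -0.64, -0.33, 0.19 and 0.64. These medians were below 0 on arrays 1 and 2, which had the lowest PIGR ratios under the main processing. In the ratios of Agilent's software PIGR was instead lowest on arrays 1 and 3, at -1.86 and -1.25. The stromal fibroblast list, with 3 of 8 measured, had a median of 1.44 on array 1, against 0.02 to 0.26 elsewhere. The summed epithelial level ran from 16.47 to 16.95 in OXA and from 16.27 to 17.56 in control RNAs. The part of the share of epithelium in the PIGR values was not tested. The genes with ratios nearest to PIGR were HHEX (a homeobox factor), ATP6V1G1 (a subunit of the proton pump of acidic vesicles) and ARF6 (a small GTPase of membrane traffic), with root mean square differences of 0.030, 0.039 and 0.049.

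**Figure D4:**
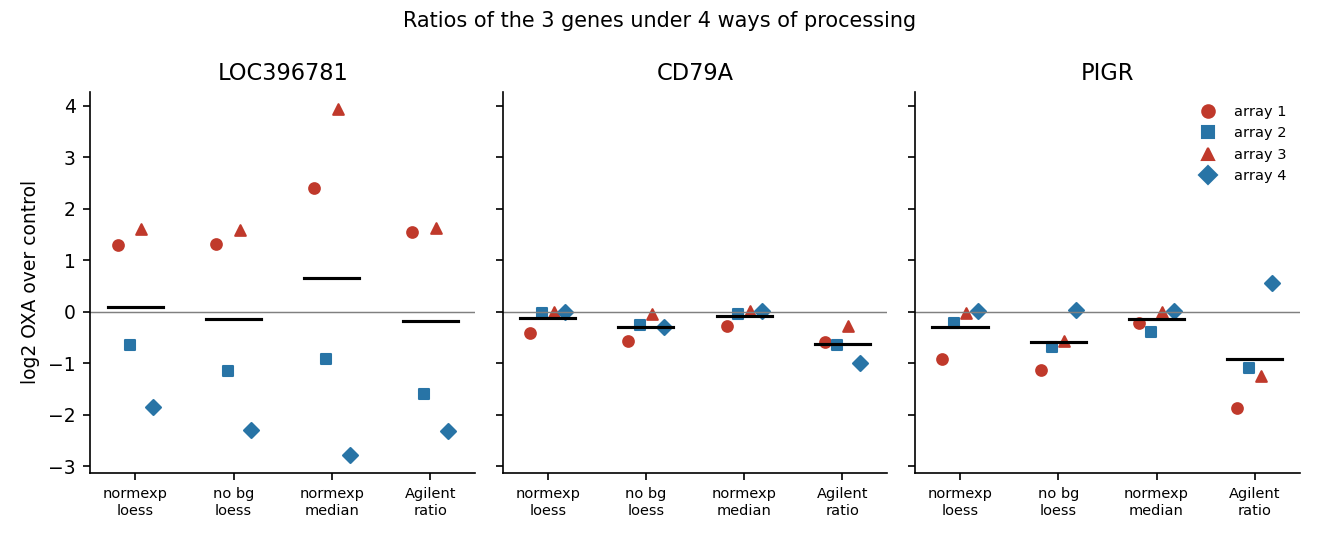
Log2 OXA over control (vertical axis) of LOC396781 (its probe of highest signal), CD79A and PIGR on each array (markers, red for OXA in Cy5 and blue for OXA in Cy3) under 4 ways of processing, with the mean of the 4 arrays as a black bar. LOC396781 is split by dye under all 4, with means from -0.18 to 0.65, while the means of CD79A (-0.08 to -0.62) and PIGR (-0.15 to -0.91) are below 0 under all 4.

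Of 116 other genes listed for B cells, plasma cells, antibody transport and the control of PIGR, 62 had a named probe and 48 were measured. No gene passed limma's test over all probes, where 0 of 26927 probes were called and 500 (1.86%) had an unadjusted p under 0.05. At a looser mark, an unadjusted p under 0.05 together with a change of 1.2-fold or more, 3 of 48 passed, all lower with OXA, against 1.3% of all probes, 0.672% lower and 0.624% higher. The list was written with earlier results on these 3 genes known, so the count is not independent evidence. In the 48 genes 19 were above 0 and 29 below, with a median of -0.05, against 0.02 for all probes.

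The 3 genes are IL6, CXCR4 and B2M. IL6, a cytokine that drives plasma cell maturation among many other actions, was -0.80, -0.49, -0.30 and -1.01 on arrays 1 to 4, a mean of -0.65 (SE 0.14). The mean of its other probe was -0.26. CXCR4, the receptor that holds plasma cells and other leukocytes near CXCL12, was -0.84, -0.33, -0.23 and -0.22, a mean of -0.41 (SE 0.12). Both were below 0 on 4 of 4 arrays. B2M, the light subunit of the neonatal Fc receptor and of class I molecules, was 0.34, -0.92, 0.14 and -0.88, a mean of -0.33 (SE 0.06). In limma's test their unadjusted p-values were 0.0106, 0.0304 and 0.00699, and the adjusted p was 0.763 for each. B2M changed sign with the dye in the manner of LOC396781. With median centring in place of loess, which moves the median of all probes from 0.02 to 0.14, the count was 5.

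**Figure D5:**
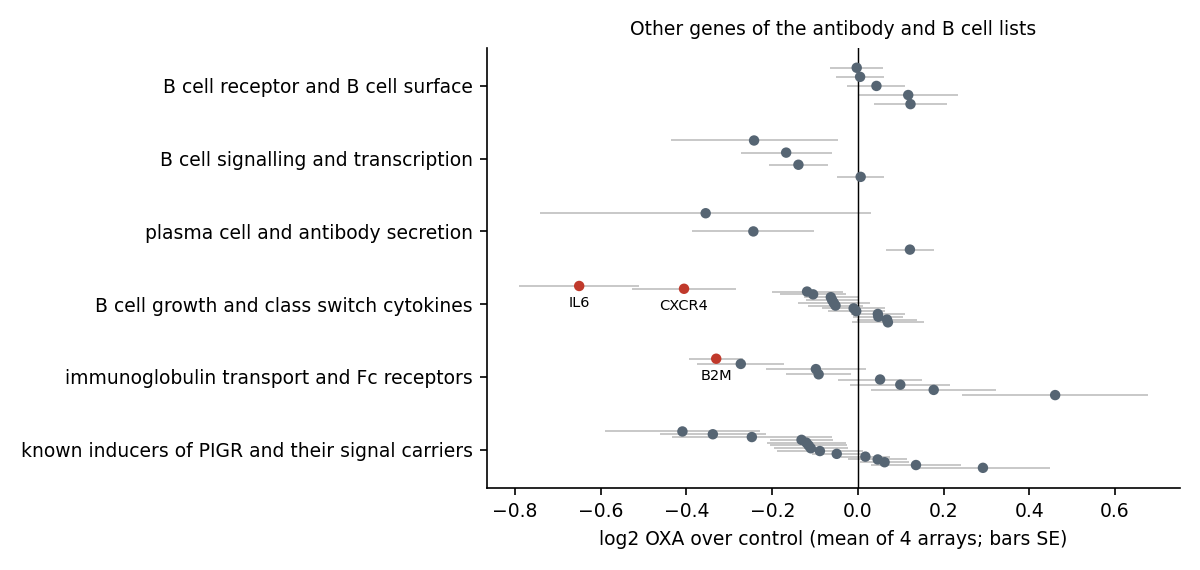
Mean log2 OXA over control over 4 arrays (horizontal axis, bars are the SE of the fit) for each measured gene of the 6 lists, one point a gene, with LOC396781, CD79A and PIGR left out. The 3 genes in red, IL6, CXCR4 and B2M, are those past the looser mark, and all 3 lie below 0.

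Of 22 listed B cell receptor and surface genes, CD79A and 5 others were measured, and none of the 5 passed (0 genes). CD40, the receptor for help from T cells, was 0.12 (SE 0.09), CD180 (a toll-like receptor homologue of B cells) 0.12 (SE 0.12) and LY86 (the partner of CD180) 0.04 (SE 0.07). In CD40 the value was 0.58 on array 3 and -0.18 on array 2, and its other probe gave -0.09. Of 24 signalling and transcription genes 4 were measured and 0 passed, with SYK (the kinase recruited to the B cell receptor) at -0.14 (SE 0.07), PIK3AP1 (an adaptor for phosphoinositide 3-kinase) at -0.17 (SE 0.11) and BLNK (the B cell linker protein) at -0.24 (SE 0.19). BLNK ran from -0.78 on array 1 to 0.26 on array 3.

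For antibody secretion 3 of 18 genes were measured and 0 passed. XBP1 was -0.85, -0.12, -0.57 and 0.56 on arrays 1 to 4, a mean of -0.24 (SE 0.14), with 6 of 6 probes below 0. HSP90B1 (an endoplasmic reticulum chaperone) was -0.40, 0.63, -0.31 and 0.57, a mean of 0.12 (SE 0.06), and PDIA4 (a disulfide isomerase) ran from -1.66 on array 1 to 0.40 on array 3. XBP1 was lower on both arrays with OXA in Cy5 than on those with OXA in Cy3, and HSP90B1 was below 0 in Cy5 and above it in Cy3. That split is opposite in sign to that of LOC396781.

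Of the immunoglobulin transport and Fc receptor genes 16 were listed, and PIGR and 8 others were measured. FCGR3A was 0.49, -0.95, 0.74 and -1.37, a mean of -0.27 (SE 0.10), with 3 of 3 probes below 0. FCGR2B (the inhibitory receptor for IgG) was 0.46 (SE 0.22), from -0.14 on array 4 to 1.18 on array 1, but only 1 of its 3 probes was above 0 and the lowest was -0.04. FCER1G, the signalling chain that FCGR3A uses, was 0.75, -0.56, 0.23 and -0.82, a mean of -0.10 (SE 0.12). FCGRT, the heavy chain of the neonatal Fc receptor, was 0.10 (SE 0.12), and its other probe gave -0.11. FCGR3A and FCER1G were thus above 0 with OXA in Cy5 and below 0 with OXA in Cy3, as LOC396781 was.

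Cytokines of B cell growth and class switching had 14 of 21 genes measured, 4 above 0 and 10 below, and IL6 and CXCR4 were the 2 that passed. CCL28, a chemokine of mucosal epithelium that draws IgA plasma cells, had a mean of -0.12 (SE 0.08), and array 1 held its lowest value, -0.37. Of genes known to induce PIGR or to carry that signal, 14 of 18 were measured and 0 passed. NFKBIA (the inhibitor of NF-kappaB) was -0.34 (SE 0.12) and IL1B (interleukin 1 beta) -0.41 (SE 0.18). IL1B was -0.28, -0.81, 0.62 and -1.17 on arrays 1 to 4.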

How the data were processed

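Per the file headers, Agilent Feature Extraction 10.7.3.1 wrote the deposited scanner files, from which the median spot intensity and median local background of both dyes were used. The log10 ratio (Cy5 to Cy3) and processed intensity beside them are the software's own, as the authors deposited them. A table of log2 ratios was deposited as well. Set against the scanner ratios over 43420 probes its slopes were 1.06, -1.00, 1.04 and -1.03 on arrays 1 to 4, which gave log2 and OXA over control under the dyes of the single samples. The correlations were 0.89, -0.97, 0.69 and -0.80. Its column medians were -0.17, 0.06, -0.06 and 0.09. For the 3 genes its ratios were those of Agilent's software, but over all probes its centring stays unknown.

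Intensities were corrected by normexp (offset 50) and normalised by loess within each array, and levels were made comparable between arrays by Aquantile. Control and outlier spots were left out, and probes well above background in at least 4 of 8 readings were kept. This left 26927 probes, with 135 lost to outlier spots. The fit (limma 3.58.1, R 4.3.3) had an OXA and a dye coefficient on log2 ratios, with 2 residual degrees of freedom (3.88 after moderation). P-values were adjusted by Benjamini-Hochberg over all 26927. SE is that of the fit, which takes the dye split out, and SD is over the 4 arrays, which keeps it.

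Names came from RefSeq accessions without versions, matched to the gene table of Sscrofa11.1 (6700 of 7125 such probes), and a gene was represented by its kept probe of highest signal. Coordinates are left out because no build is named for the array. The 3 genes, the lists and the naming rule were chosen with earlier results of these data known. Named were all probes of the 3 genes, up to 3 genes a list (those of lowest unadjusted p), and for each of the 3 genes the 3 with the nearest ratios. Some genes that this rule or the marker check would name are not reported here. Other genes are named for the check of markers or for their dye split, after their values were seen. The fit was tested on simulated data. Alternatives were the background correction, the normalization, the signal, the filter, the dye reading, the variance model, the probe rule and leaving out each array.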

Additional observations from a re-analysis of the deposited data

Results flagged for a closer look

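Of 33 sets of 4 array values examined, 5 held 1 array far from the others by Dixon's ratio, which marks about 1 independent set in 20 by chance. The 13 LOC396781 probes share a transcript and the 3 genes were chosen by these ratios, so the count is a description, with no test. In LOC396781 the ratio of the probe A_72_P710424 was 0.58 on array 3 and that of A_72_P710175 was 0.53 there, both far above the other arrays, while the other 11 probes of the gene had no such array. CD79A was far lower on array 1, at -0.42, under the main processing, and there its control reading was not well above background. In the ratios of Agilent's software CD79A was instead lowest on array 4, with -0.58 on array 1. The median of the cytokine list for B cell growth was -0.12 on array 2, below the other arrays, and the median of the stromal fibroblast list was 1.44 on array 1.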

How the results depend on the processing

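The mean OXA ratio of LOC396781 has no settled sign. It was 0.10, but 0.65 with median centring and -0.14 when no background was taken off. It was -0.18 both from Agilent's own ratios and from the deposited table of the authors, and -0.21 to 0.40 with 1 array left out. For the 3 genes the deposited table held the same ratios as Agilent's software on each array, so it is not a separate alternative for them. CD79A and PIGR were below 0 in every alternative that gave them a value; with 8 of 8 readings required they were not kept. CD79A was -0.62 and PIGR -0.91 from both of those ratios, and without 1 array they were -0.22 to -0.01 and -0.52 to -0.08. The LOC396781 dye coefficient was above 0 throughout: 1.58 with no background correction, 2.51 with median centring, 1.77 from both of those ratios, and 1.04 to 1.65 without 1 array. With median centring the dye coefficients of 8221 probes were called after adjustment, against 0 under the main processing. A dye difference was then not particular to this gene. These dye alternatives, and the scale of the 75th percentile, which gave level distances of 0.62 for CD79A and 1.85 for PIGR, were added after the data were seen.

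Probes past the looser mark numbered 349, but 1406 with no background correction, 4297 with median centring, 1829 from Agilent's ratios, 1824 from the deposited table, 679 when OXA is taken to be Cy5 everywhere, and 285 to 3115 without 1 array. List genes past it numbered 3, but 6, 5, 9, 9 and 7 in the same order and 2 to 8 without 1 array, the highest counts being those without array 3. With an intensity trend and robust fit they numbered 2, and also 2 with the median over the kept probes of each gene. Probes called after adjustment numbered 0 in every alternative except without array 4, with 6. The cause was not tested. A slide block gives the fit without array 1. Replicate numbers only name the arrays, each of which already sets OXA against control. The number of arrays, and for CD79A and PIGR the closeness to the negative controls, limit the precision.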
